A study of Mus musculus with 32 samples.

Results

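The 10 genes described here pattern the midbrain and the cerebellum of the embryo: *En1*, *En2*, *Pax2*, *Pax3*, *Pax7*, *Wnt1*, *Fgf8*, *Fgf17*, *Atoh1* and *Barhl1*. They were chosen by symbol, and all 10 were present among the 55291 gene symbols of each count table. Messenger RNA of whole mouse brain, strain C57BL/6J, was sequenced in 32 libraries, in 8 groups of 4. Wild-type brains (WT, Dhcr7+/+) and knockout brains (KO, Dhcr7-/-) were collected at the embryonic stages E12.5, E14.5 and E16.5, which count days after conception, and at PND0, the day of birth. Dhcr7 makes 7-dehydrocholesterol reductase, which turns the last precursor into cholesterol, and its loss models Smith-Lemli-Opitz syndrome. The labels give no litter, no sex and no account of how the brain was cut from the head, and they do not say that the 4 libraries of a group came from different animals. P-values therefore measure the spread between these libraries.

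The isthmic organizer is a band of tissue at the border of midbrain and hindbrain that instructs both sides. On its midbrain side cells secrete WNT1, and on its hindbrain side they secrete FGF8 and its relatives, of which FGF17 is one. The transcription factors EN1, EN2 and PAX2 respond to these signals, maintain them and give the surrounding tissue its identity. PAX3 and PAX7 mark the dorsal neural tube, and PAX7 remains in the roof of the midbrain. ATOH1 starts the formation of granule neurons at the rhombic lip, the rim of the cerebellar plate, and BARHL1 is a homeodomain factor of granule cell precursors that also acts in the midbrain roof. Because each gene is used in a small territory, its level in a whole-brain library depends both on the RNA per cell and on the number of such cells, and these 2 quantities cannot be told apart in bulk RNA.

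The depth of the libraries was 13.9 to 28.3 M counts, and 3 counts, the most that a count of 0 allows, came to 0.106 to 0.216 CPM (counts scaled to 1 M per library). Levels below are CPM on 1 scale set over all 32 libraries by TMM, a method that corrects the totals for composition. Dhcr7 was between 58.6 and 102 CPM in the WT groups and between 11.5 and 26.7 CPM in the KO groups, and each KO library was below each WT library of its stage. The 8 brain markers Sox2, Nes, Tubb3, Map2, Dcx, Stmn2, Fabp7 and Snap25 were present in all libraries, with summed levels from 3180 to 6731 CPM. The lowest sum belonged to E12.5 WT replicate 1, which also had the highest sum of 10 skeletal muscle genes, 181.8 CPM against 6.64 to 50.3 CPM in the other 7 libraries of that stage. In that library Myod1, Myog and the other 8 muscle genes all had counts, a list of 7 genes of neural crest and pigment cells summed to 79.9 CPM against at most 37.5 CPM, and a list of 5 genes of inner ear hair cells to 77.8 CPM against 21.9 to 54.6 CPM. The hair cell list summed to between 55.8 and 119 CPM in the libraries of the later stages, so a high sum was not particular to that library. A list of 16 Hox genes of the hindbrain and spinal cord summed to 19.6 CPM (325 counts) in E12.5 WT replicate 1. In the other 7 libraries of that stage it summed to 0.362 to 3.88 CPM. *Pax2*, which the inner ear also uses, and *Pax3*, which muscle precursors also use, were at their highest of the group in E12.5 WT replicate 1. The part of other tissue in these levels was not tested.

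A pair of further libraries lacked most of the patterning transcripts and touch each result at E16.5 and PND0. In E16.5 WT replicate 1 the 10 genes summed to 7.48 CPM, against 68.5, 79.9 and 140.0 CPM in the other libraries of the group. It held 11 counts of *En1*, 13 of *En2*, 10 of *Pax7*, 1 of *Pax3*, 39 of *Barhl1* and 0 of *Pax2* and *Atoh1*. In PND0 KO replicate 4 the sum was 5.84 CPM, against 68.0 to 122 CPM, with 8 counts of *En1*, 5 of *En2*, 13 of *Pax7*, 2 of *Pax3* and 44 of *Barhl1*. The library totals, 15.5 and 17.6 M, were within the range of their groups. Counts of CT010467.1, a ribosomal RNA, made up 3.75% of E16.5 WT replicate 1, against 0.356% to 0.626% in the other 3, and 1.47% in PND0 KO replicate 4, against 1.16% to 2.09%. Over all genes E16.5 WT replicate 1 was also the farthest of its group from the others, with a chi-square per degree of freedom of 41.8 to 43.1 against each, where those 3 had 6.24 to 14.7 among themselves. E12.5 KO replicate 1, which held the patterning transcripts, stood farther still from its own group. It had 110.8 to 114.7 against each, where the others had 5.57 to 13.8 among themselves. CT010467.1 made up 5.64% of it, against 0.191% to 0.34% in the rest of that group. The part of RNA quality in the levels of the patterning genes was not tested. Values at E16.5 and PND0 are given with and without the libraries that lacked most patterning transcripts, where a result rests on them.

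Positions are in the mouse genome (build GRCm38, GENCODE M21). *En1* is on chromosome 1 (120602418 to 120607992, plus strand), as is *Pax3* (78101267 to 78197134, minus strand). *En2* is on chromosome 5 (28165694 to 28172166, plus), *Pax7* on chromosome 4 (139737062 to 139833528, minus) and *Wnt1* on chromosome 15 (98789857 to 98793837, plus). *Pax2* (44756045 to 44837871, plus) and *Fgf8* (45736798 to 45742915, minus) are both on chromosome 19. *Fgf17* is on chromosome 14 (70636203 to 70642268, minus), *Atoh1* on chromosome 6 (64729125 to 64731245, plus) and *Barhl1* on chromosome 2 (28907679 to 28916668, minus). Counts are per gene, over its exons. The minus-strand transcript Gm43610 overlaps *En2* and had 0 to 61 counts per library, while the 3 RNAs that overlap *Pax2* had at most 7, and the sources used here do not say whether counting used the strand.

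RefSeq promoter entries (GRCm38.p6) were matched for 6 of the 10 genes, and those of *En1*, *Barhl1* and *Atoh1* are shown. Each stretch ends at the base before the first transcribed base, and is written 5′ to 3′ on the strand of the gene. Capitals mark CCAAT or CAGNTG, each searched on both strands (CCAAT reads ATTGG on the other strand), with no overlap between them.
En1, chr1:120602237-120602417, plus strand: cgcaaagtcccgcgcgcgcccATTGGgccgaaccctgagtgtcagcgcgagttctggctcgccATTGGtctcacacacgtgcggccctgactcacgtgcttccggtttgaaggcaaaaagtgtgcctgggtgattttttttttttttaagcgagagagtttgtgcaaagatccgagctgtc
Barhl1, chr2:28916669-28916918, minus strand: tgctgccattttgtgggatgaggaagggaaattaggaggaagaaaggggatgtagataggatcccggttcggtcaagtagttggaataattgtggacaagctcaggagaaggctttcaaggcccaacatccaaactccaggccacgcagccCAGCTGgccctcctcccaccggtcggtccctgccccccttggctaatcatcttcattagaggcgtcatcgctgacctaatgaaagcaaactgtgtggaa
Atoh1, chr6:64728875-64729124, plus strand: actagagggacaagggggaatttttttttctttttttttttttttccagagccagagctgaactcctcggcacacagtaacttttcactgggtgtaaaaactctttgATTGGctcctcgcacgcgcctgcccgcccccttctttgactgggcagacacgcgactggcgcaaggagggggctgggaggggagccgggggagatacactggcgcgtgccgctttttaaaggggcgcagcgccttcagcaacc
The 181 bases of *En1* hold 2 CCAAT matches, 15 CpG sites and 55.2% G or C. The 250 bases of *Barhl1* hold 1 CAGNTG match, the core letters of an E-box, with 7 CpG sites and 52.8% G or C. The 250 bases of *Atoh1* hold 1 CCAAT match and no CAGNTG, with 14 CpG sites and 55.6% G or C. CCAAT occurs in 34.5% and CAGNTG in 44.5% of the 250-base stretches of 27018 genes, and CCAAT in 25.5% of the stretches of 181 bases, so neither match is rare. The homeodomain core TAATTA, found in 4.9% of stretches of 250 bases and 3.95% of those of 181 bases, is in none of the 3.

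The engrailed genes *En1* and *En2* encode homeodomain repressors of the midbrain and the cerebellum. *En1* in WT measured 16.03, 12.1, 17.4 and 21.7 CPM at E12.5 and 23.3, 19.5, 23.2 and 20.6 CPM at E14.5. The E16.5 libraries had 0.71, 18.8, 7.17 and 7.59 CPM, and those of PND0 had 2.04, 8.68, 21.7 and 11.8 CPM. The E14.5 libraries were close together, those of E16.5 all lay below them, and the PND0 libraries reached back up to the E14.5 level in replicate 3. *En2* had 38.7, 19.2, 55.6 and 68.0 CPM at E12.5 and 57.9, 52.7, 59.1 and 58.4 CPM in the E14.5 libraries. The E16.5 libraries had 0.839, 38.8, 15.6 and 14.3 CPM of it, and the PND0 libraries 2.71, 10.8, 26.1 and 15.9 CPM. Its E14.5 libraries also lay above all those of both later stages.

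*Pax7* and *Barhl1* were both higher in WT at E14.5 than at E12.5, and the groups did not overlap, as for 27.2% of all genes tested. *Pax7* rose from 26.5, 22.7, 24.7 and 28.2 CPM to 39.1, 34.6, 38.0 and 35.8 CPM (log2 fold change 0.51, standard error (SE) 0.0754, adjusted p 0.000302). *Barhl1* rose from 16.9, 28.6, 36.5 and 35.3 CPM to 53.8, 50.4, 58.5 and 50.8 CPM (log2 fold change 0.83, SE 0.204, adjusted p 0.00772). These increases came to 1.42-fold and 1.78-fold. In a fit that took the spread from all 32 libraries the sizes were 0.52 and 0.85, and neither passed (adjusted p 0.396 and 0.218). Over the same step 7 of 8 genes of meninges and mesenchyme fell (median log2 fold change -1.54), as did all 6 tested muscle genes of the 10 (-3.68), while 5 of 10 forebrain genes rose and 1 fell (0.58), beside a median of -0.03 over all genes. The part of these shifts in tissue in the changes of the patterning genes was not tested.

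*Pax3*, *Fgf8* and *Fgf17* fell over the same step, the first 2 with no overlap, as for 26.4% of all genes tested. *Pax3* went from 49.0, 29.2, 24.6 and 37.4 CPM to 19.9, 17.6, 19.5 and 16.8 CPM (log2 fold change -0.95, SE 0.197, adjusted p 0.0031). Its highest E12.5 value is that of replicate 1, the library with muscle transcripts, and without replicate 1 the E12.5 mean was 30.4 ± 6.48 CPM (SD, n = 3) in place of 35.1 ± 10.7 CPM (SD, n = 4). The groups stayed apart without that library, since the lowest E12.5 value is that of replicate 3. *Fgf8* went from 2.65, 2.31, 2.36 and 3.31 CPM to 0.938, 0.531, 1.51 and 1.36 CPM (log2 fold change -1.34, SE 0.302, adjusted p 0.00355). *Fgf17* went from 6.87, 5.91, 8.69 and 12.8 CPM to 4.20, 4.68, 6.38 and 4.15 CPM (log2 fold change -0.85, SE 0.239, adjusted p 0.0116). Its highest E14.5 library lay above its lowest E12.5 library. The *Pax3* call was lost in the fit of all 32 libraries (adjusted p 0.118) and the *Fgf17* call with a covariate for sex genes (0.0631).

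Thus 5 of the 10 genes passed the threshold of an adjusted p under 0.05 between E12.5 and E14.5 in WT, 2 higher and 3 lower. Over all 17942 genes tested, 57.8% passed, 27.3% higher and 30.5% lower, so the share among the patterning genes was near the background. *En1* had a log2 fold change of 0.33 with an adjusted p of 0.0758, and without E12.5 WT replicate 4 it passed (0.47, adjusted p 0.0142). *Pax2* had 9.70, 1.65, 2.24 and 3.52 CPM at E12.5 and 7.10, 6.62, 5.19 and 7.29 CPM at E14.5. The log2 fold change came to 0.59 (SE 0.491, adjusted p 0.329) with all libraries and 1.35 (adjusted p 0.000196) without E12.5 WT replicate 1. *En2*, *Wnt1* and *Atoh1* did not pass, with log2 fold changes of 0.30, -0.10 and 0.22.

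**Figure D1:**
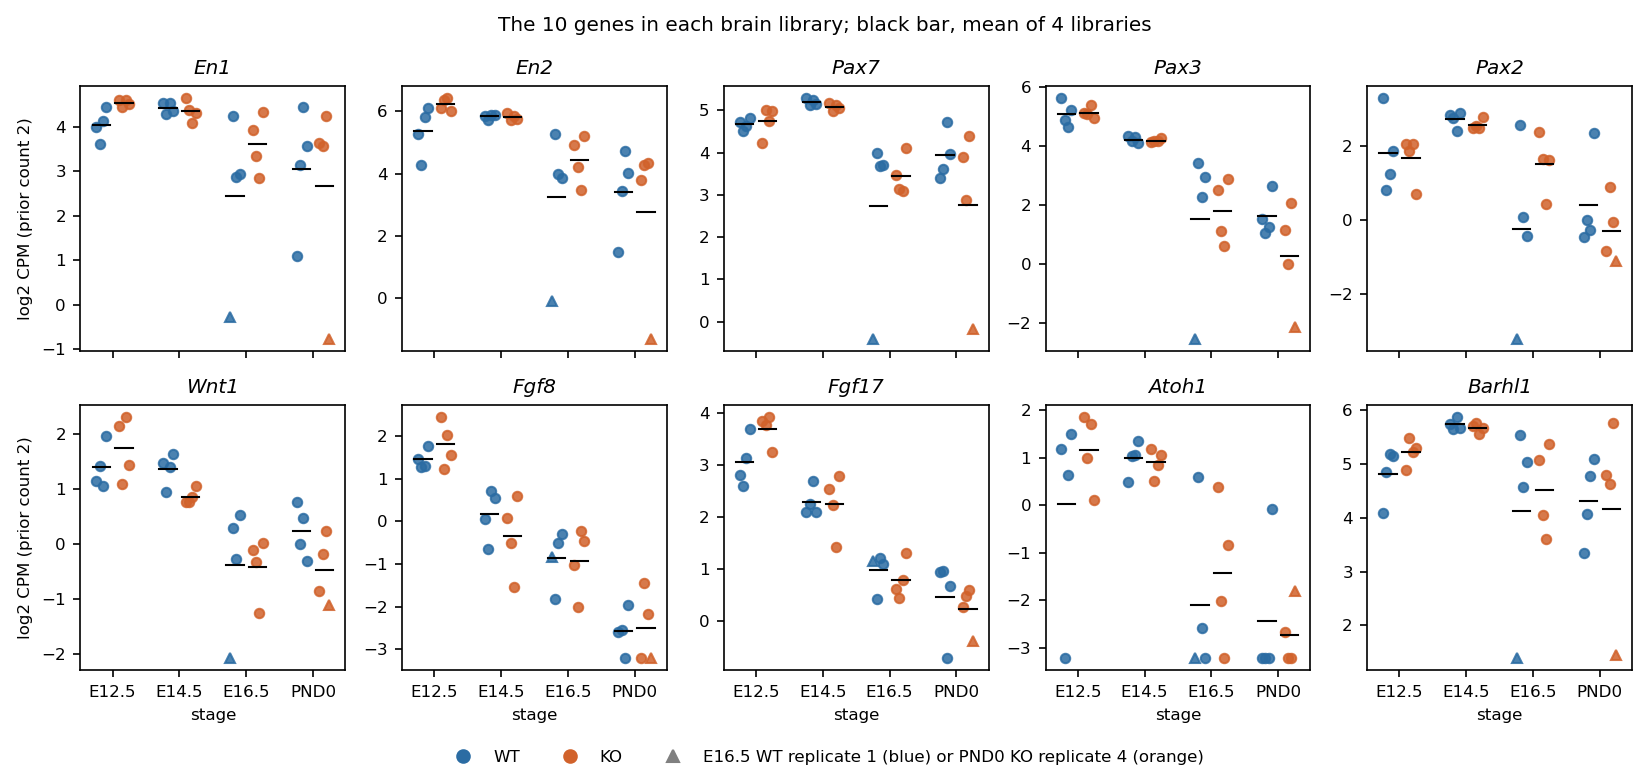
Level of each gene in log2 CPM (y axis, a scale of its own for each gene) at the 4 stages (x axis), with 1 point per brain library, blue for WT and orange for KO. Black bars are means of log2 CPM over 4 libraries. Triangles mark E16.5 WT replicate 1 and PND0 KO replicate 4, in which *En1*, *En2*, *Pax3*, *Pax7* and *Barhl1* were near the bottom of each panel.

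Between E14.5 and E16.5 in WT all 10 log2 fold changes were below 0, and 4 of the 10 genes passed, all of them lower. Of 17674 genes tested, 57.5% passed, and 28.2% passed as lower. *Fgf17* fell from a mean of 4.85 ± 1.05 to 1.90 ± 0.455 CPM (SD, n = 4 each; log2 fold change -1.33, SE 0.215, adjusted p 6.54e-05), with E16.5 values of 2.13, 1.23, 2.21 and 2.04 CPM. *Wnt1* fell from 2.68, 1.81, 2.53 and 3.01 CPM to 0.129, 1.11, 0.717 and 1.34 CPM (log2 fold change -1.56, SE 0.382, adjusted p 0.00297). Neither gene overlapped between the stages, and both calls held in each alternative fit that was run.

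The other 2 calls at that step depended on the libraries and the fit. *Fgf8* fell to 0.452, 0.175, 0.598 and 0.702 CPM, which is 3 to 11 counts per library (log2 fold change -1.13, SE 0.428, adjusted p 0.0327). Its adjusted p was 0.0588 without E16.5 WT replicate 1, 0.107 without replicate 2, 0.0994 without E14.5 WT replicate 3 and 0.0872 without E14.5 WT replicate 4. It was 0.0548 with DESeq2, 0.0673 in the fit of all 32 libraries and 0.137 with the sex-gene covariate. *Pax7* fell to 0.645, 15.7, 12.8 and 12.9 CPM (log2 fold change -1.78, SE 0.585, adjusted p 0.0397). Without E16.5 WT replicate 1 its size was -1.41 and its adjusted p 2.11e-09, whereas it exceeded 0.05 without any 1 of the 4 E14.5 libraries (0.0736 to 0.0846) and without E16.5 WT replicate 3 or 4 (0.074 and 0.0725). It was also above 0.05 without the filter (0.069), with the replicate block (0.121) and with the sex-gene covariate (0.0534). Each of the 3 other E16.5 libraries of *Pax7* lay well below the lowest E14.5 library.

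For 7 of the 10 genes every E16.5 WT library lay below every E14.5 WT library, where 28.2% of all genes tested did. These were *En1*, *En2*, *Pax3*, *Pax7*, *Wnt1*, *Fgf17* and *Barhl1*. The log2 fold changes of *En1* and *En2* were -1.31 and -1.68, with SE of 0.647 and 0.709 and adjusted p 0.132 and 0.087. Without E16.5 WT replicate 1 they were -0.94 (adjusted p 0.0697) and -1.30 (0.0321). Without that library *Pax3* also passed, at -1.28 in place of -1.67 (adjusted p 0.0003 in place of 0.0754), and *Barhl1* at -0.63 in place of -0.99 (0.0492 in place of 0.228). The estimates were thus closer to 0 without the library. They were farther from 0 without E16.5 WT replicate 2, at -2.03 for *En1* (adjusted p 0.031) and -2.44 for *En2* (0.0252). In the fit of all 32 libraries *En2* (0.0391) and *Pax3* (0.0134) passed.

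*Pax2* and *Atoh1* turned on another library, E16.5 WT replicate 2. *Pax2* at E16.5 measured 0, 5.79, 0.956 and 0.638 CPM in WT, and *Atoh1* measured 0, 1.40, 0.0598 and 0 CPM, which is 24 counts in replicate 2 and at most 1 in the others. With all libraries the log2 fold changes from E14.5 were -1.78 and -2.30 (adjusted p 0.123 and 0.059). Without replicate 2 the *Pax2* estimate was -3.56 (adjusted p 9.32e-05) and the *Atoh1* estimate -6.14 (4.46e-07), and *Pax2* also passed in the fit of all 32 libraries (0.0437). The second is an estimate from 1 count in 3 libraries, and *Atoh1* without replicate 2 had a mean of 0.0199 CPM.

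Between E16.5 and PND0 in WT none of the 8 genes tested passed (edgeR; smallest adjusted p 0.315, for *Fgf17*), where 53.2% of 17438 genes did. None had an unadjusted p under 0.05, where 58.5% of all genes did. *Fgf8* and *Atoh1* were too low to be tested. *Fgf8* had 1, 1, 0 and 3 counts in the PND0 WT libraries and 0, 4, 2 and 0 in the KO libraries, at or near the limit that a count of 0 allows. *Atoh1* had 0, 0, 0 and 17 counts in WT and 1, 0, 0 and 3 in KO. Without E16.5 WT replicate 1 *Pax3* passed as lower (log2 fold change -1.20, adjusted p 0.021), in place of -0.81 (adjusted p 0.491). The intervals were wide, from -1.94 to 2.62 for *En1* and from -2.18 to 1.62 for *Barhl1* (95%), so that even the direction of a change was not detectable with these libraries.

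The wide intervals reflect levels that differed many-fold between WT libraries of 1 stage. *Barhl1* measured 2.52, 46.6, 23.7 and 32.7 CPM at E16.5 and 10.1, 16.7, 27.4 and 34.0 CPM at PND0. *Pax7* measured 10.5, 12.2, 26.6 and 15.6 CPM at PND0, where replicate 3 was the highest library of both *Pax7* and *En1*. *Pax3* measured 0.0645, 10.5, 4.72 and 7.53 CPM at E16.5, the first from 1 count, and 2.77, 1.97, 2.29 and 6.12 CPM at PND0. In *Pax3* the highest PND0 library was replicate 4, as in *Pax2* and *Atoh1*.

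The secreted signals *Wnt1* and *Fgf17* were low at the last stage. *Wnt1* measured 2.11, 2.56, 1.96 and 3.78 CPM in WT at E12.5 and 1.58, 0.887, 1.28 and 0.697 CPM at PND0. *Fgf17* measured 1.81, 1.84, 0.503 and 1.49 CPM at PND0. *Atoh1* measured 2.17, 0, 1.44 and 2.73 CPM at E12.5 and 1.29, 1.95, 1.98 and 2.46 CPM at E14.5, the stage at which it had counts in all WT libraries and its smallest spread on the log2 scale.

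Per kilobase of the longest annotated transcript, *En2* was the highest of the 10 genes in WT at E12.5 and E14.5 and *Barhl1* at E16.5 and PND0. At E14.5 the WT means were 16.1 ± 0.8294 CPM per kilobase for *En2*, 14.6 ± 1.01 for *Barhl1*, 8.26 ± 0.726 for *En1*, 6.30 ± 0.351 for *Pax7*, 4.79 ± 0.387 for *Pax3* and 2.87 ± 0.62 for *Fgf17* (SD, n = 4). *En2* overlapped *Barhl1*, and each of the next 5 steps down to *Pax2* at 1.503 ± 0.218 was without overlap. *Pax2*, *Wnt1*, *Fgf8* and *Atoh1* overlapped their neighbours, at 1.05, 0.929 and 0.905 CPM per kilobase for the last 3. At E16.5 every gene overlapped its neighbour in the order, in WT and in KO, and at PND0 the single step without overlap was in WT, between *Pax7* (2.77 ± 1.24) and *Pax3* (0.851 ± 0.497).

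The median spread between libraries of a group was larger for these genes than over all genes, with no matching for level. Over genes whose group mean reached 1 CPM, the median standard deviation of log2 CPM in WT at E14.5 was 0.173 for the patterning genes and 0.094 for all genes, and in KO 0.14 and 0.098. At E12.5 it was 0.454 against 0.163 in WT and 0.335 against 0.229 in KO. At E16.5 it reached 2.11 against 0.141 in WT and 0.778 against 0.111 in KO, and 6 of the 7 patterning genes at that level exceeded the 95th percentile of all genes in each genotype. At PND0 it was 0.788 against 0.177 in WT (6 of 8 above the 95th percentile) and 1.97 against 0.186 in KO (5 of 6). The E16.5 KO and PND0 WT groups hold neither of the libraries that lacked most of the transcripts, so the wide spread at these stages was not limited to them. E14.5 was the stage at which these genes could be measured most precisely. In WT at that stage *En2*, *Pax7* and *Barhl1* had 0.076, 0.08 and 0.098, near the median of all genes. The low genes *Wnt1*, *Atoh1* and *Fgf8* had 0.301, 0.363 and 0.605.

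**Figure D2:**
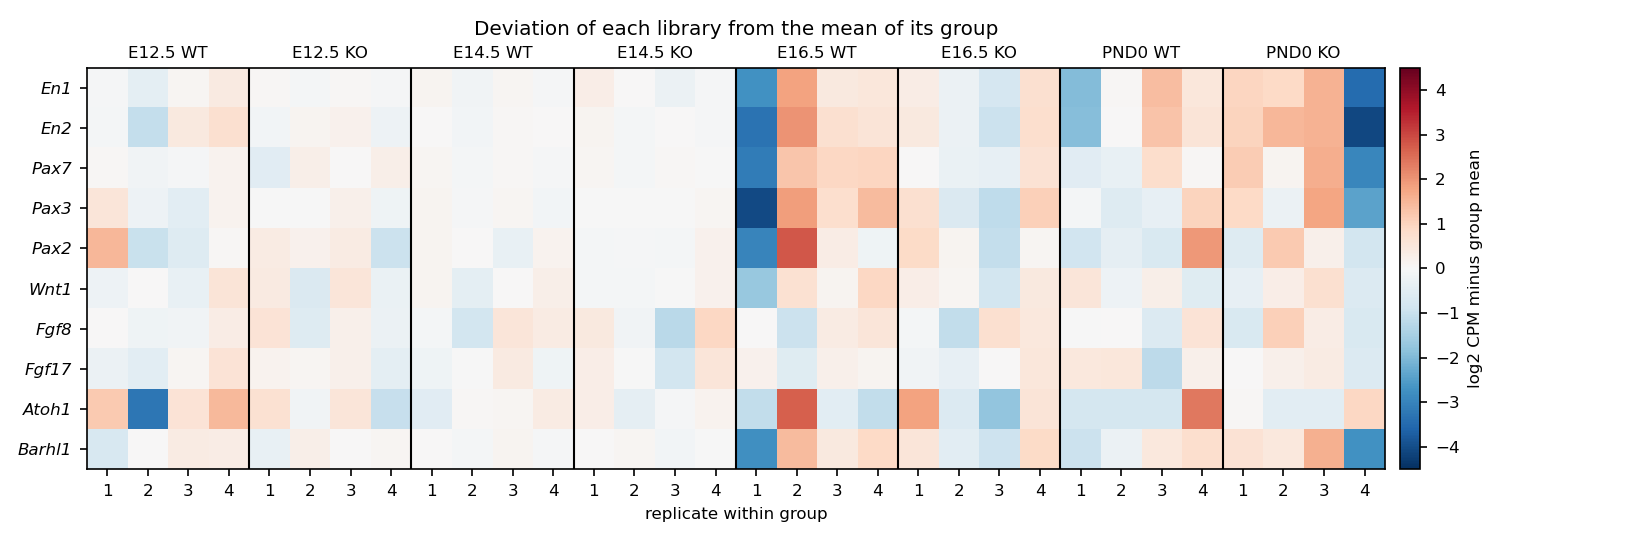
Deviation of log2 CPM from the mean of its group (colour, red above and blue below) for each gene (rows) in each of the 32 libraries (columns, by group and replicate). Most rows are blue together in E16.5 WT replicate 1 and PND0 KO replicate 4, *Atoh1* and *Pax2* are red in E16.5 WT replicate 2 and PND0 WT replicate 4, and the E14.5 columns are pale.

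Several genes moved together from library to library. In E16.5 WT replicate 1, 7 of the 10 genes were at their lowest of the group, and in PND0 KO replicate 4, 8 were. In E16.5 KO replicate 3, 8 genes were at their lowest and the 10 genes summed to 43.9 CPM, against 60.9 to 130 CPM in the other 3 libraries. In PND0 WT replicate 1 the sum was 32.2 CPM, against 53.9 to 107 CPM. The FGF ligands differed between the 2 libraries that lacked most transcripts. In E16.5 WT replicate 1 *Fgf17* had 33 counts (2.13 CPM), second highest of its group, and *Fgf8* had 7 counts (0.452 CPM), above replicate 2. In PND0 KO replicate 4 *Fgf17* was the lowest of its group, at 0.655 CPM against 1.09 to 1.41 CPM, and *Fgf8* had 0 counts, as in replicate 1.

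A list of 10 forebrain genes, among them Emx1, Tbr1 and Dlx1, was at its highest of the group in the 2 libraries that lacked the patterning transcripts. Its sum was 1713 CPM in E16.5 WT replicate 1, against 1038 to 1677 CPM in the other 3, and 1794 CPM in PND0 KO replicate 4, against 1007 to 1476 CPM. The library with the most patterning transcripts at E16.5, WT replicate 2, had the lowest forebrain sum of that stage. Over the 8 libraries of E16.5 the summed level of *En1*, *En2*, *Pax7* and *Barhl1* had a Pearson correlation of -0.807 with the forebrain sum (exact permutation p 0.0138, adjusted 0.0472 over 8 relations) and a Spearman correlation of -0.881 (exact p 0.00724, adjusted 0.0579). Over the 8 libraries of PND0 they were -0.795 (exact p 0.0177, adjusted 0.0472) and -0.667 (exact p 0.0831, adjusted 0.133). Without the 2 libraries farthest from the median forebrain sum, Pearson's r was -0.561 at E16.5 (without WT replicates 1 and 2) and -0.477 at PND0 (without WT replicate 3 and KO replicate 4), so the relations rest in large part on those libraries. The sums share the total of their library, and the relations were looked for after the levels had been seen. The permutations took WT and KO libraries of a stage together, so a difference between genotypes also enters r, rho and p.

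At E12.5 the sign was the opposite: r was 0.712 (exact permutation p 0.0459, adjusted 0.074), Spearman's rho 0.833 (exact p 0.0154, adjusted 0.0615), and r 0.877 without WT replicate 1 and KO replicate 1. A list of 8 genes of meninges and mesenchyme summed to between 561 and 2616 CPM over the 8 libraries of E12.5, and was highest in WT replicate 1, where the forebrain sum was lowest. At E14.5 r was 0.563 (exact p 0.142, adjusted 0.142), rho 0.595 (exact p 0.132, adjusted 0.176) and r 0.507 without WT replicate 4 and KO replicate 3. At E12.5 the sum of *En1*, *En2*, *Pax7* and *Barhl1* was 82.7 to 153 CPM in WT and 141 to 180.5 CPM in KO. The forebrain sum was 647 to 1181 CPM in WT and 918 to 1378 CPM in KO. The part of tissue composition in these levels was not tested, nor was that of genotype in the correlations.

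In some libraries *Atoh1* and *Pax2* were high together with a list of 16 Hox genes, which mark the hindbrain behind the cerebellum and the spinal cord. At E12.5 this held for *Pax2* in WT replicate 1 (9.70 CPM, Hox sum 19.6 CPM). *Atoh1* had 2.17 CPM in that library, and 3.14 CPM in KO replicate 3, where the Hox sum was 0.362 CPM. The Hox list summed to 6.61 CPM (113 counts, 11 of 16 genes with a count) in E16.5 WT replicate 2, in which *Pax2* and *Atoh1* were highest, against 0.179 to 0.516 CPM in the other 3. In PND0 WT replicate 4 it summed to 4.68 CPM (94 counts, 9 of 16 genes), against at most 0.17 CPM in the other 3. *Pax2* measured 0.622, 0.887, 0.726 and 5.03 CPM in the PND0 WT libraries, and replicate 4 stood far above the others. In the 4 PND0 KO libraries all 16 Hox genes had 0 counts. *Pax2* there was between 0.357 and 1.74 CPM, and *Atoh1* at or below 0.179 CPM. In E16.5 KO replicate 1 the Hox sum was 3.33 CPM against 0.0624 to 0.899 CPM, and *Pax2* (5.14 CPM) and *Atoh1* (1.20 CPM) were again at their highest of the group.

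Over the 8 libraries of E16.5 the sum of *Atoh1* and *Pax2* had a Pearson correlation of 0.887 with the Hox sum (exact permutation p 0.00139, adjusted 0.0111) and a Spearman correlation of 0.738 (exact p 0.0458, adjusted 0.122). Pearson's r was 0.665 without WT replicate 2 and KO replicate 1. At PND0 r was 0.973 (exact permutation p 0.0863, adjusted 0.0986), rho 0.273 (exact p 0.512, adjusted 0.512) and r -0.158 without WT replicates 1 and 4, so it rested on replicate 4. At E12.5 and E14.5 r was 0.752 and 0.682 (exact permutation p 0.0536 and 0.0555, adjusted 0.074 each) with rho 0.381 and 0.69 (exact p 0.36 and 0.0694, adjusted 0.411 and 0.133). Without the 2 farthest libraries r was -0.532 and -0.023, so both rested on them. *Atoh1* and *Pax2* were summed and set against the Hox list after their levels in these same libraries had been seen. The p-values are therefore descriptive, and the adjustment does not cover that choice. The Hox list took few counts in most libraries, and its part in the levels of *Atoh1* and *Pax2* was not tested.

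**Figure D3:**
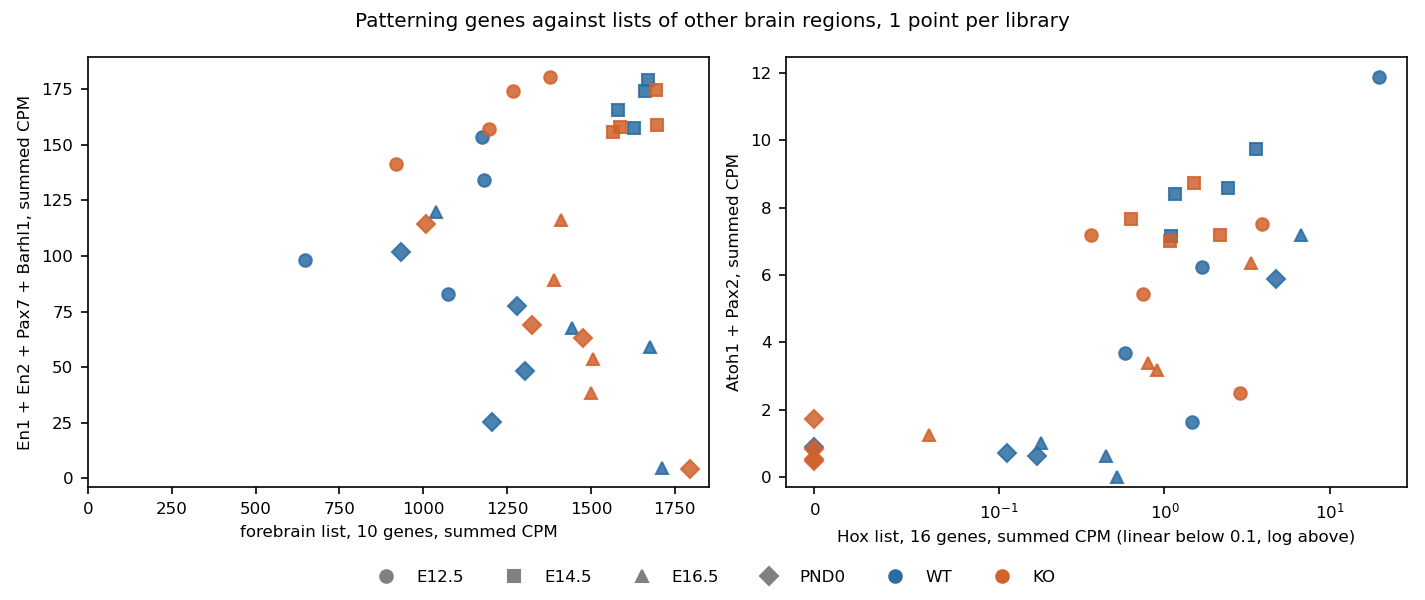
Left, summed CPM of *En1*, *En2*, *Pax7* and *Barhl1* (y axis) against the summed CPM of 10 forebrain genes (x axis); right, summed CPM of *Atoh1* and *Pax2* against the summed CPM of 16 Hox genes (x axis linear below 0.1 and logarithmic above), 1 point per library, shape by stage and colour by genotype. On the left the E16.5 and PND0 points run from upper left to lower right, and on the right E12.5 WT replicate 1, E16.5 WT replicate 2 and PND0 WT replicate 4 are the points of highest Hox sum at their stage.

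In the comparison of genotypes, none of the patterning genes passed the threshold at any stage (edgeR quasi-likelihood test, Benjamini-Hochberg adjustment over all genes tested). At E12.5, 0 of 10 passed, where 0.0177% of 16948 genes did, and at E14.5, 0 of 10, where 0.527% of 17837 did. At E16.5, 0 of the 8 tested passed, where 0.0462% of 17328 did, and at PND0, 0 of 8, where 1.44% of 17420 did. The smallest adjusted p was 0.875, 0.479, 0.807 and 0.431 in stage order. The number with an unadjusted p under 0.05 was 3, 1, 0 and 0, where 4.7%, 8.73%, 11.5% and 18.0% of all genes tested were below it, and DESeq2 called none at any stage among those it gave an adjusted p. Each single library was left out in turn, and each alternative fit was run, without a genotype call on any of the 10 genes.

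At E12.5 8 of the 10 estimates were above 0. Median log2 fold changes were 0.196 for the forebrain list and 0.189 for the 8 brain markers, beside 0.0031 over all genes. Lists of midbrain and isthmus factors and of the cerebellar lineage had 0.222 and 0.248, and 1 of isthmic FGF signalling -0.22. The muscle, neural crest and mesenchyme lists had -1.986, -0.582 and -0.385. The part of tissue composition in these estimates was not tested. *En1* measured 16.03, 12.1, 17.4 and 21.7 CPM in WT and 24.2, 21.9, 24.3 and 22.7 CPM in KO. All KO libraries were above all WT libraries, which held for 1.43% of genes tested, and the log2 fold change was 0.45 (SE 0.154, 95% interval 0.10 to 0.80, unadjusted p 0.0164, adjusted p 0.875). *En2* measured 68.9, 81.8, 85.5 and 63.6 CPM in KO against 38.7, 19.2, 55.6 and 68.0 CPM in WT (log2 fold change 0.71, 95% interval 0.02 to 1.40, adjusted p 0.875). Here the highest WT library lay within the KO range. *Fgf17* measured 14.3, 13.6, 15.03 and 9.39 CPM in KO (log2 fold change 0.59, 95% interval 0.04 to 1.13, adjusted p 0.875), with 1 WT library above the lowest KO library.

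In E12.5 WT replicate 2 *En2* was lowest of the group at 19.2 CPM and *Atoh1* had 0 counts, against 25 to 75 counts in the other 3. Without that library the log2 fold changes of *En1*, *En2* and *Fgf17* were 0.33, 0.46 and 0.45. Without WT replicate 1, the library with muscle and Hox transcripts, they were 0.43, 0.65 and 0.50. The estimate of *Pax2* then went from -0.41 to 0.38 and that of *Pax3* from -0.02 to 0.19. *Pax2* and *Pax3* thus differed in sign with and without that library, with no call either way. KO replicate 1, the library with the largest share of CT010467.1, was also left out in turn, with no call on the patterning genes.

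The other 7 genes overlapped between the genotypes at E12.5. *Barhl1* measured 29.4, 44.9, 37.3 and 39.2 CPM in KO (log2 fold change 0.34), and all but the first lay above the highest WT library (36.5 CPM). *Pax7* measured 18.6, 31.9, 26.9 and 31.7 CPM in KO (0.08) and *Pax3* 34.5, 34.0, 41.3 and 30.5 CPM. The estimates of the low genes *Wnt1*, *Fgf8* and *Atoh1* were 0.38, 0.41 and 0.53. *Fgf8* had 5.32, 2.22, 3.98 and 2.85 CPM in KO, and its lowest KO library was below all 4 WT libraries.

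At E14.5 the genotypes were measured most closely. *En2* had 61.4, 52.4, 56.9 and 54.2 CPM in KO and 57.9, 52.7, 59.1 and 58.4 CPM in WT, and the 95% interval of the log2 fold change ran from -0.12 to 0.09. For *Barhl1*, with 52.3, 54.2, 47.0 and 51.0 CPM in KO, it ran from -0.16 to 0.06, for *En1* from -0.24 to 0.13 and for *Pax3* from -0.20 to 0.14. *Pax7* had 36.0, 31.5, 35.0 and 33.1 CPM in KO and an interval from -0.24 to 0.01 (adjusted p 0.601). For these genes the ends of the interval lay closer to 0 than the 0.51 by which *Pax7* had risen in WT from E12.5 to E14.5. *Wnt1* had the largest estimate of the stage: 1.58, 1.59, 1.69 and 1.98 CPM in KO against 2.68, 1.81, 2.53 and 3.01 CPM in WT, or 29 to 40 counts against 51 to 71. The log2 fold change came to -0.54 (SE 0.232, 95% interval -1.01 to -0.08, unadjusted p 0.0242, adjusted p 0.479), and the lowest WT library lay below the highest KO library.

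At E16.5 and PND0 the intervals were wide. *En1* at E16.5 measured 15.2, 10.03, 7.11 and 20.2 CPM in KO, of which the last lay above the highest WT library (18.8 CPM), and its 95% interval ran from -1.23 to 2.43 on the log2 scale. For *Barhl1*, with 33.5, 16.6, 12.0 and 41.4 CPM in KO, it ran from -1.91 to 1.83. *Pax7* measured 10.9, 8.78, 8.42 and 17.2 CPM in KO and *Pax3* 5.63, 2.08, 1.44 and 7.18 CPM. In KO, as in WT, the library with most *En1* also had most *En2*, *Pax7* and *Barhl1*. *Fgf17* had the narrowest interval of the 8 genes tested, from -0.76 to 0.36, with 1.42, 1.25, 1.62 and 2.38 CPM in KO. Without E16.5 WT replicate 1 the estimates were 0.23 in place of 0.60 for *En1*, 0.06 in place of 0.45 for *En2*, -0.29 in place of 0.09 for *Pax7* and -0.88 in place of -0.48 for *Pax3*, with adjusted p between 0.519 and 0.972. With E16.5 WT replicate 2, the library with Hox transcripts, left out, they were 1.33 for *En1*, 1.20 for *En2* and 2.49 for *Pax2*, which was 0.31 without replicate 1 (adjusted p 0.548, 0.64 and 0.277 without replicate 2). At PND0 *En1* measured 12.4, 11.8, 18.8 and 0.476 CPM in KO and *Barhl1* 27.8, 24.7, 54.1 and 2.62 CPM. *Pax7* had 14.8, 7.27, 20.99 and 0.774 CPM there, and *En2* 13.8, 19.2, 20.3 and 0.298 CPM. Replicate 3 was the highest and replicate 4 the lowest KO library of all 4 genes. Without PND0 KO replicate 4 the estimates were 0.38 in place of -0.02 for *En1*, 0.36 in place of -0.05 for *En2* and 0.69 in place of 0.31 for *Barhl1* (adjusted p 0.834, 0.84 and 0.537). *Pax2* at PND0 had an estimate of -1.14, which was 0.17 without WT replicate 4, the library with Hox transcripts. A difference between genotypes was not detectable for these genes at the last 2 stages, and the intervals do not show that the genotypes were alike.

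**Figure D4:**
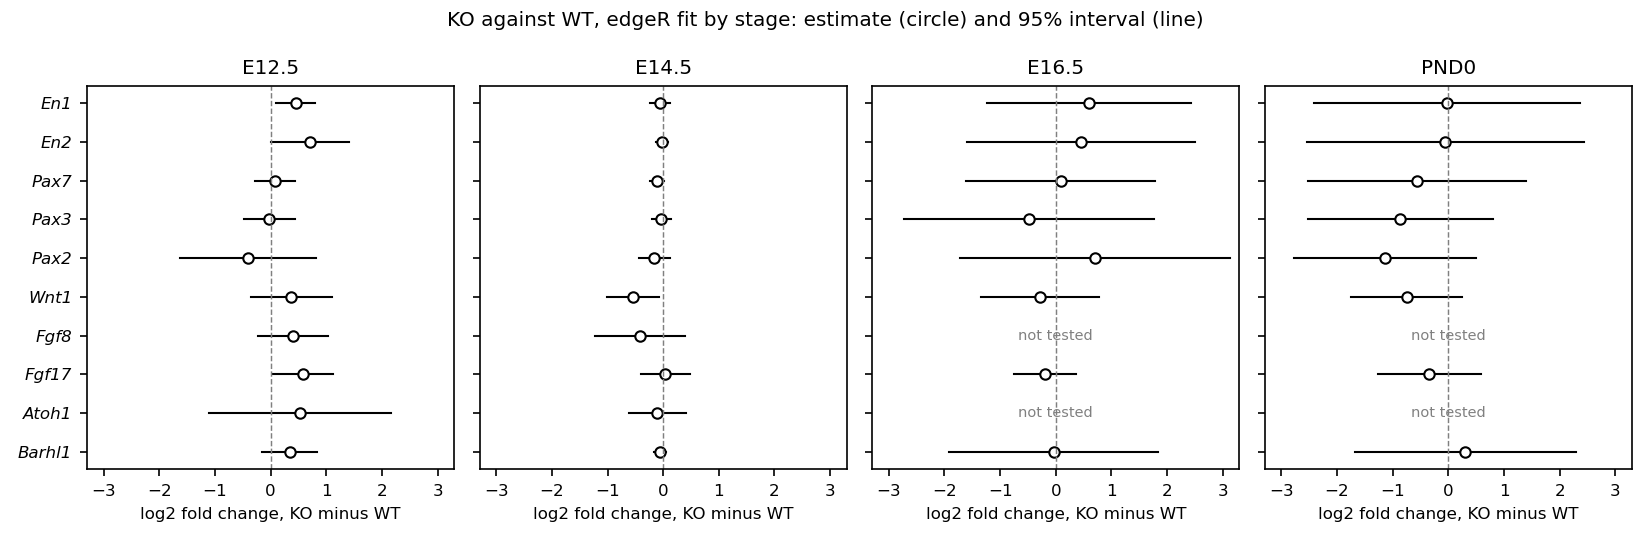
Log2 fold change of KO minus WT (x axis) for each gene (y axis) at each stage, as edgeR's estimate (circle) and 95% interval (line); the dashed line is 0 and genes without a circle were not tested. The E14.5 intervals are the shortest, and those of *En1*, *En2*, *Pax7* and *Barhl1* at E16.5 and PND0 extend beyond 1 on both sides of 0.

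A test of whether the KO effect changed with stage, fitted over all 32 libraries, called none of the 10 genes (smallest unadjusted p 0.139 and adjusted p 0.507, both for *Fgf17*), where 0.0256% of 19541 genes passed. DESeq2 also called none of the 8 genes to which it gave an adjusted p. With both libraries that lacked most patterning transcripts left out together, the smallest adjusted p among the 10 genes was 0.409, for *Wnt1*.

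Because most of these genes moved together between libraries, counts were also compared as ratios within a library, which do not depend on its total. The ratio of *En1* to *En2* counts in WT was 0.403, 0.37, 0.393 and 0.353 in the E14.5 libraries. It was 0.846, 0.484, 0.46 and 0.529 in those of E16.5, with 0.75, 0.806, 0.831 and 0.744 in those of PND0. The E16.5 values were all above those of E14.5 (geometric means 0.379 and 0.564; exact permutation p 0.0286, two-sided, adjusted 0.15). With 4 libraries against 4, 0.0286 is the smallest p that the test can give, and none of 21 such comparisons passed after adjustment. The PND0 libraries were close together in this ratio although their *En1* levels ranged over 10.7-fold. In E16.5 WT replicate 1 the ratio rests on 11 and 13 counts, and without that library the log2 difference from E14.5 was 0.37 in place of 0.57.

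The ratio of *Barhl1* to *En2* in WT was 0.928, 0.957, 0.988 and 0.871 at E14.5, against 3, 1.20, 1.52 and 2.28 at E16.5 (exact permutation p 0.0286, adjusted 0.15). At E16.5 the KO libraries were lower, at 1.12, 0.912, 1.10 and 1.11, with no overlap with WT (exact permutation p 0.0286, adjusted 0.15). Without E16.5 WT replicate 1 the log2 difference between KO and WT was -0.60 in place of -0.82. At PND0 the genotypes overlapped, with 3.71, 1.55, 1.05 and 2.14 in WT and 2.01, 1.28, 2.67 and 8.80 in KO, the last from 44 and 5 counts. The ratio of *Pax7* to *En2* in WT was 0.769, 0.406, 0.82 and 0.902 at E16.5, against 3.88, 1.13, 1.02 and 0.978 at PND0 (exact permutation p 0.0286, adjusted 0.15). Its log2 difference was 1.05, and 0.58 without PND0 WT replicate 1. The 3 ratios were chosen after the levels had been seen.

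**Figure D5:**
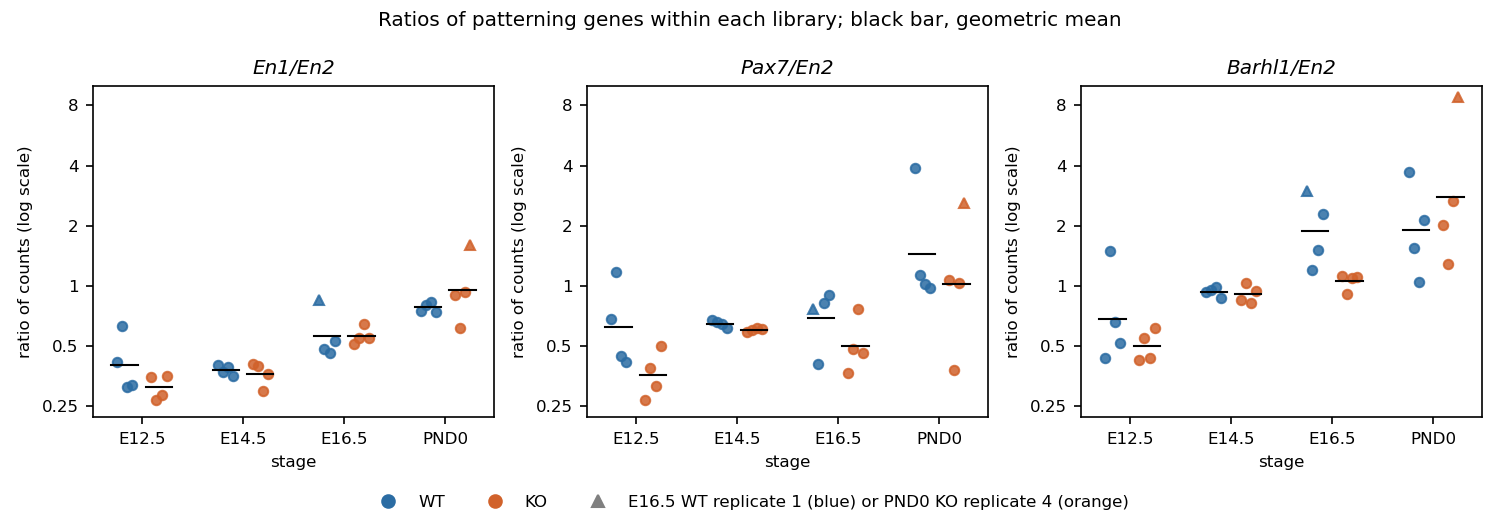
Ratio of counts within each library (y axis, log scale) for *En1* to *En2*, *Pax7* to *En2* and *Barhl1* to *En2* at the 4 stages, with 1 point per library, blue for WT and orange for KO, and black bars for geometric means of 4 libraries. The E14.5 points are close together in all 3 panels, and the *En1* to *En2* ratio in WT is above 0.7 in all 4 libraries at PND0.

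Of 14 genes of isthmic FGF signalling (ligands, receptors and feedback genes), 14 were tested at each stage, and the call of a KO effect was made on Il17rd at PND0 alone. Il17rd, which encodes the FGF antagonist SEF, stood at 22.6 ± 2.18 CPM in WT and fell to 14.48 ± 2.78 CPM in KO (4 libraries each, SD; log2 fold change -0.65, SE 0.151, adjusted p 0.0457). The 4 KO libraries lay below the 4 WT libraries, as for 5.84% of all genes tested, and 1.03% were called lower at that stage. The call was lost when any library of the stage other than KO replicate 3 was left out (adjusted p 0.0565 to 0.167), with a covariate for sex genes (0.0514) and with offsets for transcript length (0.172). The median log2 fold change of the list at PND0 was -0.07, beside 0.00 over all genes.

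Of 14 transcription factors of the midbrain and the isthmus, 2 were lower in KO at E14.5, where 0.308% of all genes were, and none at the other stages. Pax5, a partner of Pax2 at the isthmus, went from 37.5 ± 1.14 CPM (WT) to 30.95 ± 1.29 CPM (KO; log2 fold change -0.27, SE 0.0604, adjusted p 0.0184). Gata2, a selector of GABAergic midbrain neurons, was 18.5 ± 1.38 and 14.2 ± 0.842 CPM (log2 fold change -0.38, SE 0.0874, adjusted p 0.0257). Among 20 genes of the cerebellar lineage, 17 were tested at E14.5 and 1 passed: Olig3, a factor of the rhombic lip and the dorsal hindbrain, was 7.63 ± 1.01 and 5.16 ± 0.623 CPM (log2 fold change -0.56, SE 0.138, adjusted p 0.0486). Genotypes did not overlap for any of the 3, as for 2.76% of genes tested as lower. The Pax5 call was lost without WT replicate 3 or 4 or KO replicate 1, 2 or 3 (adjusted p 0.0514 to 0.0823), the Gata2 call without WT replicate 3 or 4 or KO replicate 1 or 4 (0.0805 to 0.151), and the Olig3 call without any library but WT replicate 2 (0.0558 to 0.237). All 3 were lost in the fit of all 32 libraries (1.0 for each). The medians of the lists at E14.5 were -0.04 and 0.00, beside 0.00 over all genes.

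From E14.5 to E16.5 in WT the wider lists also held more genes that fell than genes that rose. Of the 14 midbrain and isthmus factors 7 passed, all lower, with a median log2 fold change of -1.36 beside 0.01 over all genes. Gbx2, which sets the hindbrain side of the isthmic border, fell from 14.98 ± 0.55 to 6.87 ± 1.85 CPM (SD, n = 4; adjusted p 1.48e-05), and Helt, a determinant of midbrain GABAergic neurons, from 4.61 ± 0.516 to 1.49 ± 0.585 CPM (adjusted p 1.96e-05). Of the 17 cerebellar genes tested, 10 passed, all lower (median -0.78), among them Olig3, from 7.63 ± 1.01 to 0.689 ± 0.294 CPM (log2 fold change -3.43, adjusted p 8.57e-09), and Nhlh1, a factor of newly born neurons, from 40.7 ± 3.38 to 11.5 ± 1.55 CPM (log2 fold change -1.80, adjusted p 1.32e-09). Of the 14 FGF genes 7 fell and 1 rose, where 28.2% of all genes fell and 29.3% rose. Fgfr3 fell from 146.1 ± 7.53 to 55.9 ± 7.48 CPM (adjusted p 8.5e-09), and Etv4, an FGF target, rose from 6.12 ± 0.362 to 13.2 ± 1.86 CPM (adjusted p 1.06e-06). Without E16.5 WT replicate 1 each of these 6 genes still passed. In that library the cerebellar list summed to 1068 CPM, against 998 to 1279 CPM in the rest of its group. In PND0 KO replicate 4 it summed to 1158 CPM, against 1025 to 1087 CPM. In the same libraries the FGF list had 420 against 409 to 442 CPM and 486 against 461 to 507.5 CPM. The midbrain and isthmus factors had 43.2 against 188 to 233.5 CPM and 28.35 against 101 to 210 CPM. The part of other brain regions in the cerebellar and FGF lists was not tested.

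Between E12.5 and E14.5 in WT the same lists were divided. Of the FGF genes 3 passed, all lower: Il17rd (log2 fold change -0.70, adjusted p 0.00372), Fgfr2 (-0.47, 0.0165) and Fgf18 (-0.69, 0.0487), where 30.5% of all genes fell and 27.3% rose. The Fgf18 call was lost with RLE size factors (adjusted p 0.053), with the replicate block (0.0997) and without any library of these stages other than E12.5 WT replicates 3 and 4 (0.068 to 0.147). Without E12.5 WT replicate 1, the library with muscle transcripts, the Fgf18 estimate was -0.34. The Fgfr2 call was lost without the filter (0.0604), and the Gata3 call below in the fit of all 32 libraries (0.496). Of the midbrain and isthmus factors 2 rose and 2 fell, with Gata3 at 0.37 (adjusted p 0.00215) and Gata2 at -0.77 (0.00792), a pair of factors of the same GABAergic lineage. Of 17 cerebellar genes tested 5 rose and 3 fell, with Cntn2, an adhesion molecule, up from 287 ± 43.2 to 636 ± 22.8 CPM (adjusted p 7.42e-06). From E16.5 to PND0 5 FGF genes rose and 1 fell, where 26.0% of all genes rose and 27.2% fell, with the feedback inhibitor Spry4 from 6.68 ± 1.03 to 18.8 ± 3.01 CPM (log2 fold change 1.47, adjusted p 3.04e-06). Of the midbrain and isthmus factors 2 fell and none rose, and of the 16 cerebellar genes tested 1 rose, Calb1, a calcium-binding protein of Purkinje cells (log2 fold change 0.70, adjusted p 0.0127), and 2 fell.

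The genes whose profile over the 8 group means of log2 CPM was closest to that of each patterning gene were named by the root mean square (RMS) difference after centring. *Fgf17* was closest to Fzd10, a WNT receptor (0.152), and Shh, a ventral patterning signal (0.187). *En1* was closest to Irx2 (0.214) and Lmx1b (0.256), both midbrain and isthmus transcription factors, and *Barhl1* to Nxph4 (0.135). *En2* and *Atoh1* shared Skor1 as the nearest gene (0.203 and 0.344), *Pax7* was nearest to D130058E05Rik (0.229) and Ebf3 (0.234), and *Wnt1* to Sec31b (0.185) and Shox2 (0.202). *Pax3* was nearest to Sall4 (0.331), *Pax2* to Gm47430 (0.334) and *Fgf8* to H4c9 (0.222). Among the 10 genes themselves the nearest pair was *En1* and *Barhl1* (0.335). The measure uses 8 points and covers the stage differences that many genes share.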

How the data were processed

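RNA was extracted with a Qiagen Lipid RNeasy kit, enriched for poly(A) and sequenced by Novogene as paired reads on an Illumina NovaSeq, per the labels. The authors deposited whole-number read counts per gene symbol, 1 table per stage. The submitters' processing notes name HISAT2, SAMtools, featureCounts, DESeq2 and the mm10 build, and their versions and strand setting are not given in the sources used here. Totals were 13.9 to 28.3 M counts per library. For genes with few counts, counting error limits precision in addition to the spread between libraries.

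Genotypes were compared within a stage, successive stages within WT, and the genotype effect between stages over all 32 libraries, with edgeR 4.0.16 in R 4.3.3 (TMM factors, robust quasi-likelihood F test). Genes were kept by edgeR's filter (minimum count 10, minimum total 15), p-values were adjusted by Benjamini and Hochberg over all genes kept, and an adjusted p under 0.05 was called. Intervals are 95%. Log2 CPM used a prior count of 2. CPM per kilobase used the longest GENCODE M21 transcript of each gene. 53186 of the symbols matched 1 GENCODE gene. Permutation tests of ratios, with full enumeration, and Spearman correlations used SciPy 1.17.1. Pearson correlations used NumPy 2.4.6, as did the exact p-values of both correlations, from all orderings of the 8 libraries of a stage. The script was tested on simulated counts with known changes.

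Alternatives were DESeq2 1.42.0 size factors and test, no filter, a replicate block, all 32 libraries in 1 fit, a sex-gene covariate, length offsets and leaving out each library. The 10 genes and the lists were chosen with earlier results of these data known. All 10 genes are described. Of each other list, up to 3 genes per comparison with the smallest p among those called could be named, and the 2 genes nearest in profile to each of the 10, of which some are not reported here. Leaving out the 2 libraries with few patterning transcripts together, the ratios and the correlations were added after the data were seen.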

Additional observations from a re-analysis of the deposited data

Results flagged for a closer look

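Of 80 combinations of gene and group, 6 had 1 library far from the other 3 (gap over range above the 95% critical value of Dixon's test for 4 values), where chance gives about 1 in 20. *Pax2* was at 5.79 CPM in E16.5 WT replicate 2, with the next library at 0.956 CPM, and *Atoh1* at 1.40 CPM in the same library, with the next at 0.0598 CPM. In PND0 WT replicate 4 *Pax2* was at 5.03 CPM, with the next library at 0.887 CPM, and *Atoh1* at 0.846 CPM with 0 counts in the other 3. The Hox list was highest of the group in both of these libraries, at 6.61 and 4.68 CPM, and its part in the values was not tested. In E14.5 KO replicate 4 *Pax2* was at 6.76 CPM, with the next library at 5.69 CPM, and *Pax3* at 19.0 CPM, with the next at 17.7 CPM.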

How the results depend on the processing

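Of the values for the 10 genes under an alternative, 1210 kept direction and side of the threshold, 13 passed newly, 20 no longer passed and 50 changed sign, none of the last while called; of those for other named genes, 382 kept both and 41 no longer passed. The cause was not tested. The number of genes called for KO against WT was 3 at E12.5 (DESeq2 32, replicate block 6, all 32 libraries 52), 94 at E14.5 (no filter 146, all 32 libraries 4), 8 at E16.5 (no filter 233, DESeq2 168, replicate block 5, all 32 libraries 3, sex-gene covariate 4) and 250 at PND0 (no filter 1091, DESeq2 919, all 32 libraries 1205, length offsets 50). Leaving out 1 library gave 1 (E12.5 KO replicate 2 or 4) to 5 (E12.5 WT replicate 3), 52 (E14.5 WT replicate 4) to 155 (E14.5 WT replicate 2), 3 (E16.5 KO replicate 3) to 14 (E16.5 WT replicate 2) and 35 (PND0 WT replicate 3) to 263 (PND0 WT replicate 2). The interaction gave 5 genes, 11 without the filter, 0 with the replicate block, 346 with DESeq2, 0 without E16.5 WT replicate 1 and PND0 KO replicate 4 together, and 0 to 797 without 1 library, the last without E12.5 KO replicate 1.

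Log2 differences that changed sign were as follows. For KO against WT at E12.5, *Pax3* was 0.018 with the replicate block and 0.009 with all 32 libraries, and *Pax7* -0.025 with the sex-gene covariate; at E16.5 *Barhl1* was 0.093 with the replicate block. From E16.5 to PND0 in WT, *Pax2* was 0.306 with the replicate block, 0.028 with all 32 libraries and 0.242 with the sex-gene covariate, and *Barhl1* 0.008 with the replicate block. Without 1 library, KO against WT ranged at E12.5 from -0.668 to 0.375 for *Pax2*, -0.159 to 0.191 for *Pax3* and -0.007 to 0.209 for *Pax7*. At E14.5 it ranged from -0.165 to 0.019 for *En1*, -0.059 to 0.021 for *En2*, -0.076 to 0.006 for *Pax3*, -0.148 to 0.233 for *Fgf17* and -0.249 to 0.034 for *Atoh1*. At E16.5 it ranged from -0.29 to 0.347 for *Pax7*, -0.618 to 0.04 for *Wnt1* and -0.41 to 0.381 for *Barhl1*. At PND0 it ranged from -0.425 to 0.527 for *En1*, -0.392 to 0.443 for *En2*, -1.743 to 0.174 for *Pax2* and -0.268 to 0.686 for *Barhl1*. Between stages in WT it ranged from -0.208 to 0.139 for *Wnt1* and -0.172 to 0.633 for *Atoh1* (E12.5 to E14.5), and from -0.208 to 1.067 for *En1*, -0.844 to 0.404 for *En2*, -1.348 to 1.739 for *Pax2* and -0.65 to 0.139 for *Barhl1* (E16.5 to PND0). The log2 ratio of *En1* to *En2* ranged from -0.116 to 0.038 (KO against WT, E14.5), -0.099 to 0.196 (E16.5) and -0.204 to 0.131 (WT, E12.5 to E14.5). That of *Pax7* to *En2* ranged from -0.134 to 0.369 (WT, E12.5 to E14.5) and -0.022 to 0.362 (E14.5 to E16.5), and that of *Barhl1* to *En2* from -0.102 to 0.007 (KO against WT, E14.5) and -0.304 to 0.301 (WT, E16.5 to PND0).

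Same-numbered WT and KO libraries did not deviate together at every number (correlations of 0.358, -0.148, 0.379 and -0.176 at E12.5), so the numbers were not taken as pairs. The replicate block gave 131 calls at E14.5 and 356 at PND0, and among the patterning genes it ended the *Pax7* call from E14.5 to E16.5 (adjusted p 0.121).

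*Fgf8* and *Atoh1* had too few counts for a test of KO against WT at E16.5 and at PND0, and of the WT step between these stages. At E16.5 and PND0 the spread between libraries, not the depth, set the width of the intervals of *En1*, *En2*, *Pax7* and *Barhl1*.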
